A study of Rattus norvegicus with 37 samples.

Results

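The liver releases glucose between meals, and 5 genes of this process and of its control by insulin are described here in rats with and without spinal cord injury (SCI). The genes were chosen by their Ensembl identifiers and are 5 of the 24613 genes in the count table. G6pc (ENSRNOG00000051171), Fbp1 (ENSRNOG00000017597) and Pc (ENSRNOG00000019372) encode enzymes of glucose production. Ppargc1a (ENSRNOG00000004473) encodes a transcriptional coactivator, and Irs2 (ENSRNOG00000023509) an adaptor of the insulin receptor. The count table holds identifiers without names, so the pairing of names with identifiers is the one given with the choice of genes.

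In gluconeogenesis, pyruvate carboxylase (Pc) makes oxaloacetate from pyruvate in the mitochondrion, fructose-1,6-bisphosphatase (Fbp1) removes a phosphate further up the path, and the catalytic subunit of glucose-6-phosphatase (G6pc) frees glucose for release into the blood. During fasting, glucagon and low insulin raise transcription of the G6pc gene, with PGC-1 alpha, the product of Ppargc1a, as a coactivator. Irs2 carries the signal from the insulin receptor into the cell, and its own transcription in liver is held down by insulin and goes up in fasting.

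RNA was sequenced from the livers of 37 female Sprague-Dawley rats, aged 8 to 9 weeks by weight at the start, in 2 sets. The SCI + In-Cage Activity set held 3 groups of 5 rats each, namely uninjured rats in standard cages (No SCI + Standard) and rats with a contusion at T2 in tiny cages (CONT SCI + Tiny) or large cages (CONT SCI + Large). Cage size therefore changes together with injury in both comparisons with the uninjured rats of that set, and the effects cannot be told apart. The SCI + Exercise set held 22 rats, all in tiny cages, namely 4 uninjured (No SCI), 4 with a T2 contusion (CONT SCI), 4 with a complete transection at T2 (TX SCI), and 5 each with a T2 contusion followed by swimming (CONT SCI + SWIM) or by walking in shallow water (CONT SCI + SWW). By the labels, livers of contused rats were taken 11.5 weeks after injury and those of TX SCI rats at 8.5 weeks, so the kind of injury and the time since injury cannot be told apart. The labels give exercise on 5 days per week for 8 weeks from day 10, while the study's methods give a later start, a longer course and a later collection for the exercised rats. By the account in the methods, exercise and time of collection cannot be told apart in comparisons of exercised with unexercised rats. Injured rats also had the surgery, antibiotics and analgesia that go with an injury.

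Between 20066978 and 25130252 reads per library were counted on genes in the In-Cage set and between 26190364 and 36761953 in the Exercise set, so the ranges of depth did not overlap. SWIM replicate 3 stood apart, with the fewest counted reads of the Exercise set (26190364) and 13648 genes with at least 1 count, beside 14682 or more in every other library. By the study's alignment summary its input reads were within the range of the set, but its share of uniquely mapped reads was the lowest of all 37. TX SCI replicate 4 came next after it, with 14682 genes and the lowest share of uniquely mapped reads but for SWIM replicate 3. Counts of G6pc ran from 4382 to 69947, of Fbp1 from 9600 to 27695, of Pc from 2898 to 18528 and of Irs2 from 265 to 10012. Those of Ppargc1a ran only from 17 to 191, so its levels carry the largest counting error of the 5. Levels are given below as normalized CPM, the count of a gene scaled to a library of a fixed size with TMM factors over all 37 samples, in the order of the replicate numbers. They are compared within a gene only, since lengths of the gene models were not used here. In whole liver, fewer cells of a type and less RNA per cell cannot be told apart. Marker genes of liver cells were not analysed here, as the identifiers could not be paired with symbols.

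The reference promoters of the genes are shown because insulin and cyclic AMP are known to act on transcription in this pathway. RefSeq (rat build GRCr8) gave 3 of the 5, matched by symbol with G6pc as G6pc1, and each run holds the 250 bases before the transcription start on the plus strand, 5′ to 3′. Capitals mark matches, on either strand, to TATAAA (the core of a TATA box), TGACGT (the core of a cyclic AMP response element), TTACGT (a variant of that element) and TGTTTT (the core of insulin response sequences). These motifs were chosen after the sequences had been read.
G6pc, chr10:86807409-86807658: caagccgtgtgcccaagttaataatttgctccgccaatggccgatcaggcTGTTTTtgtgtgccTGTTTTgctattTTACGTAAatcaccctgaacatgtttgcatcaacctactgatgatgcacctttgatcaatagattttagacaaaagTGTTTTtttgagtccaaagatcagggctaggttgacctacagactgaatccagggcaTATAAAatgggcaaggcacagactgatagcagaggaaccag
Fbp1, chr17:2213457-2213706: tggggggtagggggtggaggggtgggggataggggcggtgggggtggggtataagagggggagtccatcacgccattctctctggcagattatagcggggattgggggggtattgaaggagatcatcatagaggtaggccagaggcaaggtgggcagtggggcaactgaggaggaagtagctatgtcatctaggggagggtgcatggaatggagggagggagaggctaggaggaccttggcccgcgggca
Ppargc1a, chr14:63634058-63634307: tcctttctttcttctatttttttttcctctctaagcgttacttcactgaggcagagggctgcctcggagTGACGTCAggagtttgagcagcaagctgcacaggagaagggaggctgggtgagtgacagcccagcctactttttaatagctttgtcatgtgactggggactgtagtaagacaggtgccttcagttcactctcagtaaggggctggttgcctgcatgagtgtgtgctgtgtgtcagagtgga
The G6pc promoter held TATAAA 41 bases before the start, counted from the first base of the motif. It also held TTACGT, matched 174 and 172 bases before the start by overlapping copies on opposite strands, and TGTTTT 200, 186 and 98 bases before the start. The Ppargc1a promoter held TGACGT, again as overlapping copies on opposite strands, 181 and 179 bases before its start. The Fbp1 window held none of the 4 motifs. Among 33469 rat promoters of the same length, 12.9% held TATAAA, 6.95% TGACGT, 2.9% TTACGT and 20.4% TGTTTT. A match describes the letters only, and factor binding was not measured.

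The 5 genes differed widely in how much rats of 1 group varied. Over the 37 livers the highest level exceeded the lowest 24-fold for Irs2, 11.6-fold for G6pc, 10.9-fold for Ppargc1a, 3.17-fold for Pc and 2.00-fold for Fbp1. The SD of log2 CPM within groups was 0.90 for Irs2 and 0.75 for G6pc, higher than in 97.6% and 93.4% of 13202 genes. It was 0.52 for Ppargc1a, 0.31 for Pc and 0.20 for Fbp1, beside a median of 0.31 over all those genes. The adaptor and the last enzyme of the path were thus variable among rats treated alike, while the SD of Fbp1 was higher than in only 16.7% of those genes. Genes of all levels were ranked together, and counting error adds to the SD of genes with few counts. In the order of group means, the ranges of all 30 pairs of neighbouring groups overlapped (5 genes, within each set). Of these pairs 28 were tested, and 0 passed. Neighbours in this order have the closest means, so overlap without a call was likely beforehand and says little about the other pairs.

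**Figure D1:**
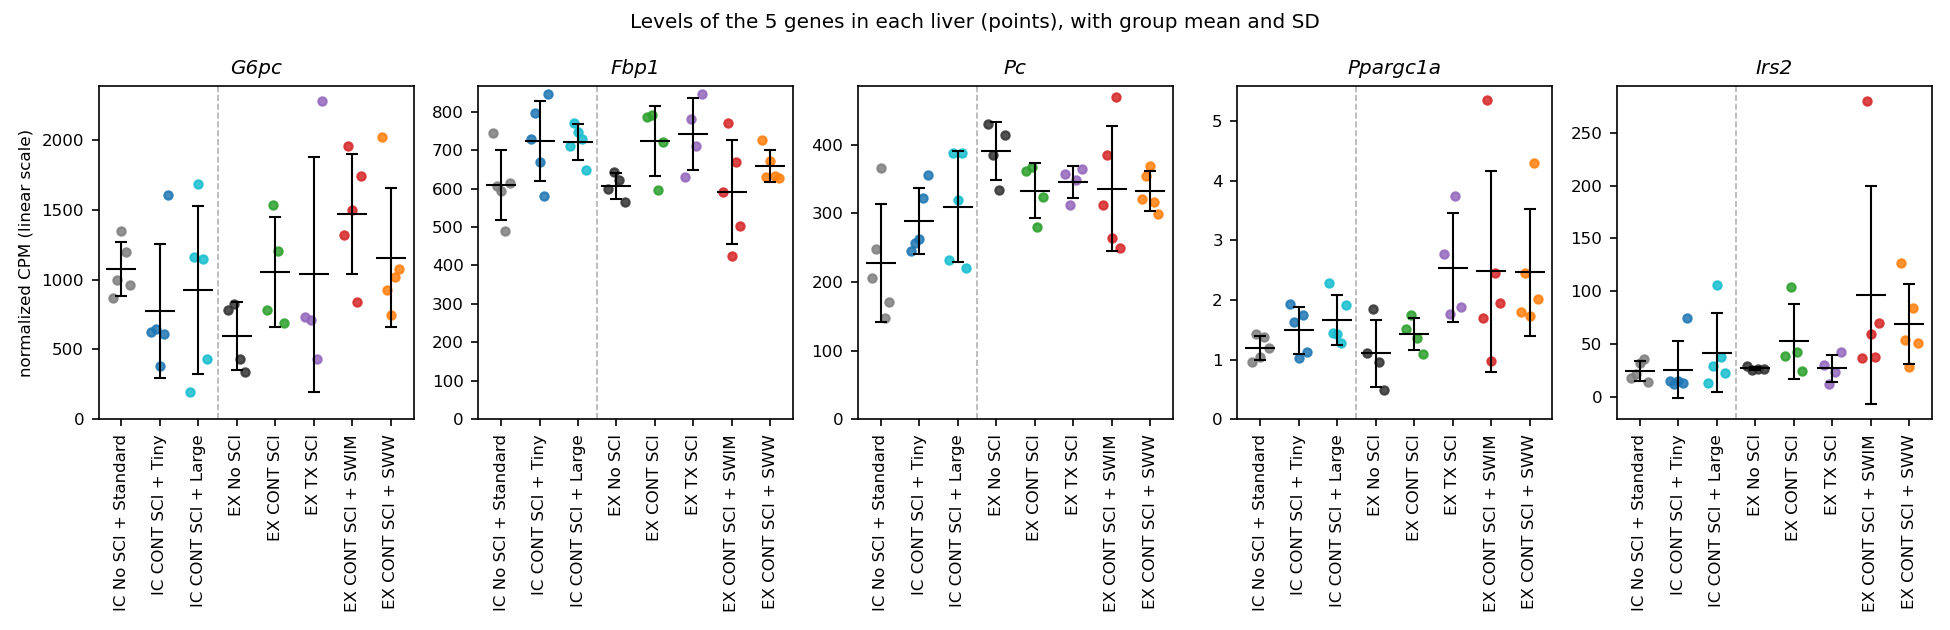
Normalized CPM (linear axes) of the 5 genes in each of the 37 livers (points), with the mean and SD of each group (black lines), the In-Cage set (IC) left of the dashed line and the Exercise set (EX) right of it. Irs2 and G6pc spread widely within groups and each has single rats far above the rest, such as CONT SCI + SWIM replicate 2 at 280 CPM of Irs2, whereas Fbp1 stays between 423 and 845 CPM throughout.

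Within sets, 11 comparisons of 2 groups gave 55 gene tests, and 0 of them passed an adjusted p under 0.05 over all genes by the quasi-likelihood test of edgeR. At an unadjusted p under 0.05 there were 11, all in the Exercise set, all with the higher level in the group named first below, and shared among G6pc, Ppargc1a and Irs2. Against No SCI these were 2 of the 5 genes for CONT SCI (4.49% of all genes), 1 for TX SCI (12.1%), 3 for SWIM (10.5%) and 3 for SWW (21%), and against CONT SCI 1 for TX SCI (13.4%) and 1 for SWW (20.8%). The comparisons share their control rats. DESeq2 called 4 of the 55, all of them in exercised rats against uninjured rats, 1 for SWIM (beside 1.35% of all genes) and 3 for SWW (beside 6.66%). Few genes of any kind passed in most of these comparisons. Beside the 0 of 5 genes called, the share of all tested genes called was 12.5% for CONT SCI + Tiny and 0.0337% for CONT SCI + Large against No SCI + Standard, and 0% for Large against Tiny. Against No SCI of the Exercise set, the shares were 0.00801% for CONT SCI, 0.0638% for TX SCI, 0.00796% for SWIM and 0.394% for SWW. They were 0.0321% for TX SCI, 0.008% for SWIM and 0.759% for SWW against CONT SCI, and 0% between the 2 exercise groups. A test for any difference among the groups of a set called 0 of the 5 genes among In-Cage groups (4.82% of all genes) and 0 of 5 among Exercise groups (2.65%). Its lowest adjusted p was 0.138 for Irs2 and 0.197 for Ppargc1a, both in the Exercise set, where DESeq2 called 1 gene, Irs2 (adjusted p = 0.0488), beside 9.62% of all genes.

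**Figure D2:**
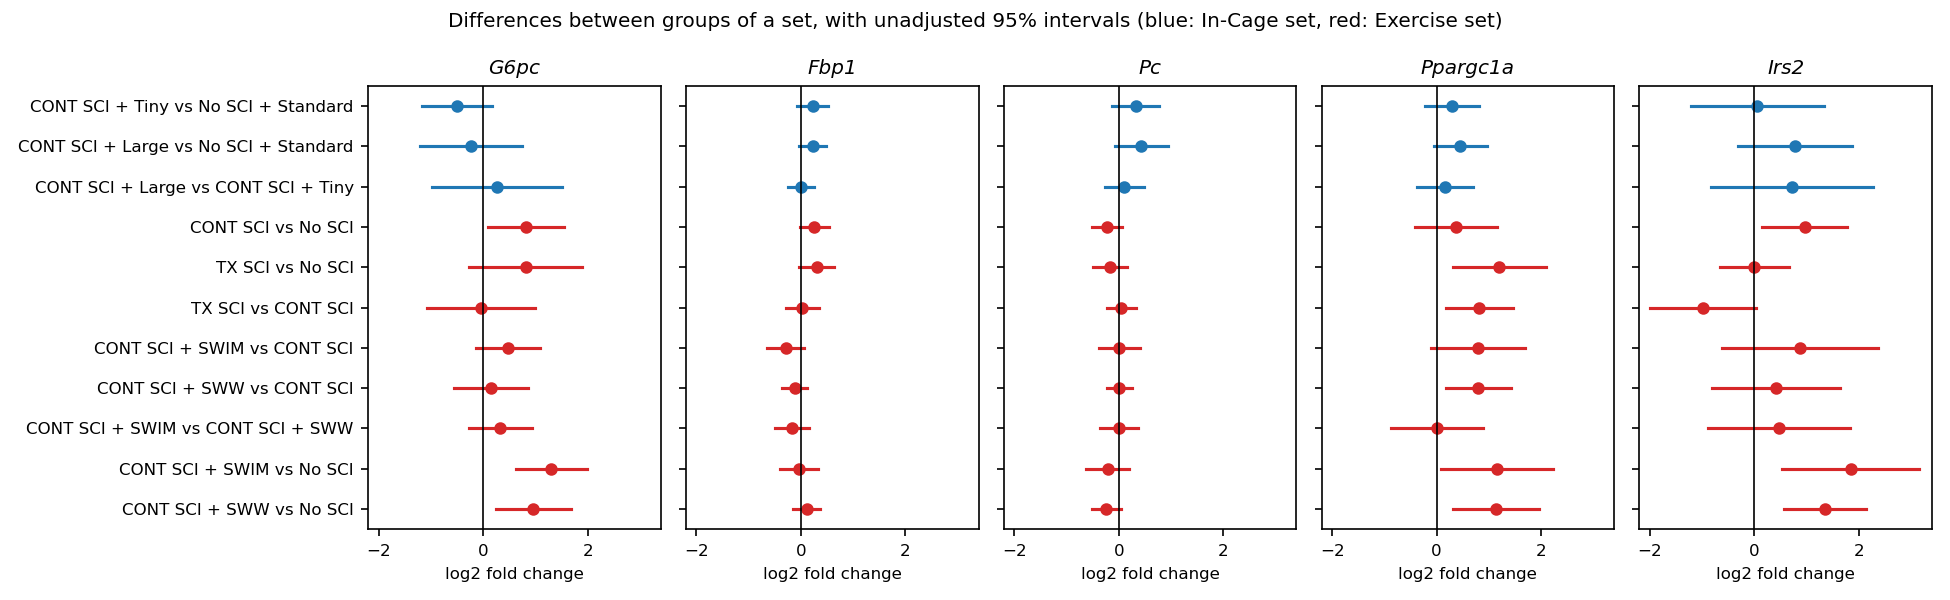
Log2 fold changes (points) of the 5 genes with unadjusted 95% intervals (lines) in the 11 comparisons within sets, the first-named group against the second, with the In-Cage set in blue and the Exercise set in red. Intervals that leave out 0 occur only in Exercise comparisons of G6pc, Ppargc1a and Irs2, and intervals of Fbp1 and Pc are the narrowest.

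G6pc, the last step of glucose release, was lowest on average in the uninjured rats of the Exercise set and highest in the swimming rats. The 4 No SCI rats had 781, 826, 432 and 339 CPM, with a mean of 594 ± 245 (SD, n = 4). CONT SCI rats had 783, 1537, 1206 and 687 CPM, with a mean of 1053 ± 394 (SD, n = 4). CONT SCI + SWIM rats had 1318, 1957, 1496, 837 and 1746 CPM, with a mean of 1471 ± 429 (SD, n = 5). On this scale the lowest swimming rat, at 837 CPM, lay just above the highest uninjured rat, at 826 CPM, and with library sizes set over these 2 groups alone the ranges overlapped. CONT SCI + SWW rats had 2023, 923, 746, 1019 and 1078 CPM, a mean of 1158 ± 499.7 (SD, n = 5). TX SCI rats had 735, 708, 431 and 2283 CPM, a mean of 1039 ± 841 (SD, n = 4). Replicate 1 of SWW and replicate 4 of TX SCI stood far above the other rats of their groups. The other TX SCI rats lay within the range of the uninjured rats. Of the other SWW rats, those at 923, 1019 and 1078 CPM lay above every uninjured rat.

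Against No SCI, the log2 fold change of G6pc was 1.31 ± 0.31 (SE, 95% interval 0.63 to 1.99, adjusted p = 0.216) in SWIM, the lowest unadjusted p of the gene at 0.00132. In SWW it was 0.96 ± 0.33 (SE, 95% interval 0.24 to 1.69, adjusted p = 0.143), and 0.65 without SWW replicate 1. DESeq2 called both, at 1.30 with adjusted p = 0.00393 for SWIM and 0.96 with adjusted p = 0.0438 for SWW. The call of both differences thus depended on the test used. For CONT SCI without exercise the value was 0.83 ± 0.33 (SE, 95% interval 0.10 to 1.56, adjusted p = 0.998). TX SCI gave 0.81 ± 0.49 (SE, 95% interval -0.27 to 1.89, adjusted p = 0.555), and 0.09 without TX SCI replicate 4. The part of that library's low share of uniquely mapped reads in its G6pc level was not tested. Among injured rats, SWIM differed from CONT SCI by 0.48 ± 0.28 (SE, 95% interval -0.13 to 1.08, adjusted p = 0.497) and from SWW by 0.33 ± 0.28 (SE, 95% interval -0.27 to 0.93, adjusted p = 0.798). A difference between exercised and unexercised contused rats was not detectable for G6pc in groups of this size. The 3 comparisons of G6pc within sets that are not given singly had log2 fold changes from -0.04 to 0.26, with adjusted p of at least 0.82.

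In the In-Cage set the order was the other way, with the highest mean in uninjured rats. No SCI + Standard rats had 872, 996, 1345, 1199 and 962 CPM, a mean of 1075 ± 193 (SD, n = 5). CONT SCI + Tiny rats had 627, 650.2, 382, 611 and 1606 CPM, a mean of 775 ± 477 (SD, n = 5). Replicate 5 of that group was above all uninjured rats, and the other 4 were below all of them. CONT SCI + Large rats had 197, 1161, 1688, 1151 and 433 CPM, a mean of 926 ± 604 (SD, n = 5), and spanned the range of the whole set. The log2 fold change for Tiny against No SCI + Standard was -0.50 ± 0.31 (SE, 95% interval -1.17 to 0.17, adjusted p = 0.267). Without Tiny replicate 5, which also had the fewest counted reads of all libraries (20066978), it was -0.94 with adjusted p = 0.0460, and G6pc was then called. The share of all genes called in that comparison was 1.66% without this rat and 12.5% with it. For Large the value was -0.24 ± 0.45 (SE, 95% interval -1.22 to 0.74, adjusted p = 0.746).

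Fbp1, which acts between Pc and G6pc in the path, had the narrowest range. In the Exercise set, No SCI rats had 599.9, 644, 622 and 564 CPM and CONT SCI rats had 787, 789.9, 597 and 721 CPM. Of the 4 contused rats, 3 were above all uninjured rats, and the log2 fold change was 0.25 ± 0.13 (SE, 95% interval -0.02 to 0.53, adjusted p = 0.998). TX SCI rats had 629.7, 782, 711 and 845 CPM, with a log2 fold change of 0.30 ± 0.15 (SE, 95% interval -0.04 to 0.64, adjusted p = 0.476) against No SCI. SWIM rats had 592, 769.6, 423, 668 and 502 CPM and SWW rats 725, 630, 672, 634 and 628 CPM. Among the swimming rats were both the lowest value of the 37, in replicate 3, and one close to the contused rats. SWIM differed from CONT SCI by -0.30 ± 0.17 (SE, 95% interval -0.66 to 0.07, adjusted p = 0.469), and by -0.19 without replicate 3. Against No SCI it differed by -0.04 ± 0.17 (SE, 95% interval -0.41 to 0.34, adjusted p = 0.963), and by 0.050 without replicate 3. The part of depth or of the low share of uniquely mapped reads in this rat's values was not tested. The In-Cage uninjured rats had 745, 606, 592, 491 and 613 CPM, Tiny rats 728, 797, 669, 581 and 845 CPM and Large rats 709, 771, 747, 729.5 and 648 CPM. Against the uninjured group the log2 fold change was 0.22 ± 0.14 (SE, 95% interval -0.07 to 0.52, adjusted p = 0.257) in Tiny and 0.22 ± 0.12 (SE, 95% interval -0.04 to 0.49, adjusted p = 0.231) in Large. All 4 comparisons of unexercised injured rats with uninjured rats thus gave values from 0.22 to 0.30, with intervals that included 0 in each, and pairs of them share their control rats. The 5 comparisons of Fbp1 within sets that are not given singly had log2 fold changes from -0.17 to 0.11, with adjusted p of at least 0.555.

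Pc, the mitochondrial entry step, had its highest group mean in the uninjured Exercise rats and its lowest in the uninjured In-Cage rats. The first had 429.8, 385, 334 and 413 CPM, a mean of 391 ± 41.8 (SD, n = 4). The second had 205, 248, 366, 148 and 171 CPM, a mean of 228 ± 85.9 (SD, n = 5), with replicate 3 above the other 4. In the Exercise set, CONT SCI rats had 361, 367, 280.5 and 324 CPM, TX SCI rats 357, 313, 349 and 364 CPM, SWIM rats 312, 385, 264, 469 and 249.97 CPM and SWW rats 321, 355, 369, 317 and 299 CPM. These injured groups overlapped each other and the uninjured rats. In the In-Cage set, Tiny rats had 246, 257, 263, 323 and 355 CPM and Large rats 232, 388, 319, 387 and 221 CPM, and both overlapped the uninjured rats. The log2 fold change of CONT SCI against No SCI was -0.23 ± 0.13 (SE, 95% interval -0.52 to 0.06, adjusted p = 0.998) in the Exercise set and, for Tiny, 0.32 ± 0.21 (SE, 95% interval -0.12 to 0.77, adjusted p = 0.28) in the In-Cage set. The 9 comparisons of Pc within sets that are not given singly had log2 fold changes from -0.24 to 0.43, with adjusted p of at least 0.23.

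Ppargc1a, the coactivator, was counted at 17 to 191 reads per library. No SCI rats of the Exercise set had 1.11, 1.85, 0.967 and 0.492 CPM and CONT SCI rats 1.52, 1.74, 1.37 and 1.10 CPM. TX SCI rats had 2.77, 1.77, 3.74 and 1.89 CPM, all 4 above the CONT SCI rats. SWW rats had 1.79, 2.46, 1.74, 4.29 and 2.02 CPM, with replicate 4 far above the rest, and SWIM rats 1.69, 5.34, 0.985, 2.46 and 1.94 CPM, with replicate 2 at the highest level of all 37 livers. The log2 fold change of TX SCI was 0.82 ± 0.29 (SE, 95% interval 0.17 to 1.47, adjusted p = 0.261) against CONT SCI, and the groups did not overlap, as in 9.49% of all genes in that comparison. Against No SCI it was 1.20 ± 0.40 (SE, 95% interval 0.31 to 2.10, adjusted p = 0.281). SWW and CONT SCI also did not overlap with library sizes set over the rats of that comparison, as in 8.66% of all genes, and differed by 0.80 ± 0.29 (SE, 95% interval 0.17 to 1.43, adjusted p = 0.147). For SWW against No SCI the value was 1.14 ± 0.38 (SE, 95% interval 0.32 to 1.97, adjusted p = 0.132). DESeq2 called this difference at 1.14 with adjusted p = 0.0450. Without No SCI replicate 2, the uninjured rat with the highest Ppargc1a, edgeR called it too, at 1.52 with adjusted p = 0.0281, and 13.2% of all genes were then called in place of 0.394%. Without SWW replicate 4 the values of SWW were 0.85 against No SCI and 0.49 against CONT SCI. SWIM gave 1.16 ± 0.49 (SE, 95% interval 0.09 to 2.24, adjusted p = 0.433) against No SCI, and 0.68 without SWIM replicate 2. The 4 comparisons of Ppargc1a within sets that are not given singly had log2 fold changes from 0.00 to 0.79, with adjusted p of at least 0.432.

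In the In-Cage set, Ppargc1a was at 0.964, 1.43, 1.05, 1.38 and 1.19 CPM in No SCI + Standard, 1.93, 1.63, 1.03, 1.75 and 1.12 CPM in Tiny and 2.29, 1.44, 1.42, 1.27 and 1.91 CPM in Large. The groups overlapped. Log2 fold changes against the uninjured rats were 0.29 ± 0.24 (SE, 95% interval -0.22 to 0.80, adjusted p = 0.408) for Tiny and 0.45 ± 0.24 (SE, 95% interval -0.06 to 0.96, adjusted p = 0.215) for Large.

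Irs2, the insulin receptor adaptor, was nearly equal among the 4 uninjured rats of the Exercise set and spread widely in the contused groups. The uninjured rats had 29.2, 25.6, 26.3 and 26.3 CPM. CONT SCI rats had 38.2, 104, 42.6 and 24.6 CPM, SWIM rats 36.5, 280.1, 59.4, 37.2 and 69.6 CPM and SWW rats 126, 54.2, 27.8, 84.4 and 50.9 CPM. TX SCI rats had 30.3, 11.9, 23.1 and 42.1 CPM, with a mean of 26.8 ± 12.7 (SD, n = 4) beside 26.9 ± 1.61 (SD, n = 4) in No SCI. All 5 swimming rats were above all 4 uninjured rats, as in 3.92% of all genes in that comparison, and replicate 2 of SWIM was far above the other swimming rats. Of the contused rats without exercise 3 of 4, and of the SWW rats 4 of 5, were above every uninjured rat.

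The log2 fold change of Irs2 against No SCI was 1.36 ± 0.36 (SE, 95% interval 0.57 to 2.14, adjusted p = 0.089) for SWW, the lowest adjusted p of the 55 tests within sets. DESeq2 called this difference at 1.35 with adjusted p = 0.00338. In edgeR fits without 1 rat it ran from 1.00 (without SWW replicate 1) to 1.56, with adjusted p from 0.061 to 0.225. For SWIM the log2 fold change was 1.84 ± 0.59 (SE, 95% interval 0.53 to 3.15, adjusted p = 0.347), and 0.92 without SWIM replicate 2. CONT SCI gave 0.96 ± 0.37 (SE, 95% interval 0.15 to 1.78, adjusted p = 0.998), and 0.38 without CONT SCI replicate 2. In SWIM and in CONT SCI, 1 rat thus carried much of the value. TX SCI gave 0.00 ± 0.30 (SE, 95% interval -0.65 to 0.66, adjusted p = 0.999) against No SCI and -0.98 ± 0.46 (SE, 95% interval -1.99 to 0.03, adjusted p = 0.379) against CONT SCI, the latter -0.40 without CONT SCI replicate 2. Swimming and walking rats differed from CONT SCI by 0.87 ± 0.67 (SE, 95% interval -0.62 to 2.36, adjusted p = 0.629) and 0.41 ± 0.53 (SE, 95% interval -0.81 to 1.64, adjusted p = 0.699). Without SWIM replicate 2 the first of these was -0.05, and the second ran from 0.07 without SWW replicate 1 to 0.99 without CONT SCI replicate 2. The 2 comparisons of Irs2 within sets that are not given singly had log2 fold changes from 0.47 to 0.72, with adjusted p of at least 0.854.

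In-Cage levels of Irs2 were 17.4, 21.4, 31.7, 36 and 14.3 CPM in No SCI + Standard, 14.9, 11.6, 14.6, 13 and 74.7 CPM in Tiny and 13.3, 29.1, 106, 38 and 22.9 CPM in Large. In Tiny, 4 rats lay between 11.6 and 14.9 CPM and replicate 5 at 74.7 CPM. The log2 fold change of Tiny against uninjured rats was 0.06 ± 0.57 (SE, 95% interval -1.22 to 1.33, adjusted p = 0.954), and -0.85 with adjusted p = 0.0651 without that rat. For Large it was 0.78 ± 0.50 (SE, 95% interval -0.32 to 1.87, adjusted p = 0.307), and 0.08 without Large replicate 3.

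**Figure D3:**
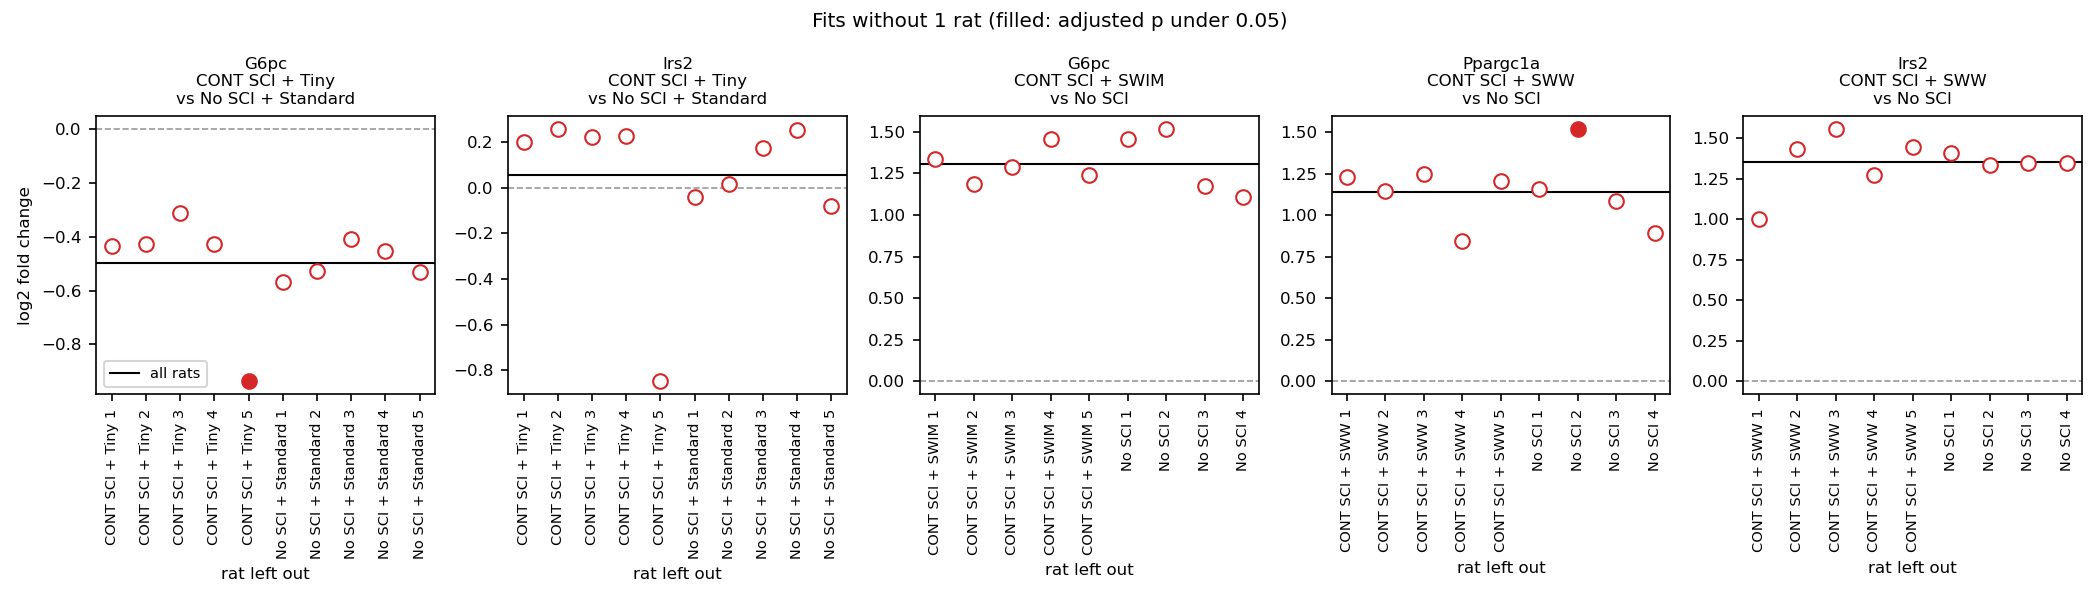
Log2 fold changes (vertical axes, each with its own scale) of 5 differences when 1 rat at a time was left out (circles, named below), with the value over all rats as a solid line and 0 as a dashed line. Filled circles passed an adjusted p under 0.05, which was the case for G6pc without Tiny replicate 5 at -0.94 and for Ppargc1a without No SCI replicate 2 at 1.52.

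Over the rats of each set, G6pc and Irs2 tended to go up and down together. In 6 of the 8 groups the rat with the highest G6pc was also the rat with the highest Irs2, and in 3 of the 8 the lowest was shared. Neither uninjured group shared its highest or its lowest rat. In No SCI of the Exercise set, replicate 2 had the highest G6pc of its group (826 CPM) and the lowest Irs2 (25.6 CPM). Some sharing comes by chance in groups this small, and these counts were not tested. The rat highest for both was replicate 5 in the Tiny group, with 1606 CPM of G6pc and 74.7 CPM of Irs2, and replicate 3 in the Large group, with 1688 and 106 CPM. After log2 CPM of each group was centred on its mean, Pearson's r was 0.833 and Spearman's rho 0.775 over the 15 In-Cage rats. Permutation of rats within groups (two-sided) gave p = 0.0003 for r and p = 0.00245 for rho, or 0.0090 and 0.0430 after adjustment over 30 relations. Over the 22 Exercise rats, r was 0.629 and rho 0.626, with permutation p = 0.00252 and p = 0.00287, adjusted 0.0378 and 0.0430. Without the 2 rats farthest from the median of G6pc, r was 0.758 in the In-Cage set and 0.559 in the Exercise set. The 30 relations were the 10 pairs of the 5 genes and each gene with the number of counted reads, in both sets, and were computed after the data had been seen. Only the G6pc and Irs2 pair passed, in both sets. TX SCI replicate 4 did not follow the pattern in size, with the highest G6pc of all 37 rats at 2283 CPM and Irs2 at 42.1 CPM, though both were the highest of its group.

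**Figure D4:**
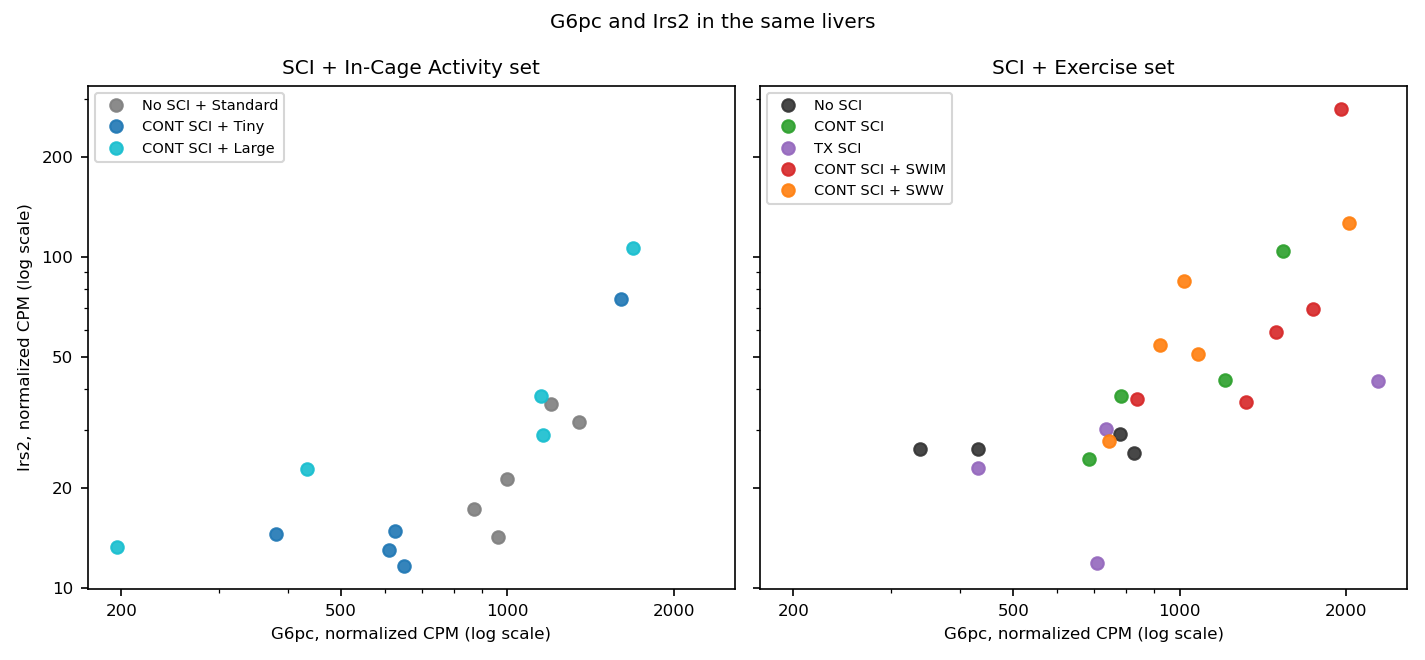
Irs2 (vertical) against G6pc (horizontal) in normalized CPM on log axes, 1 point per liver, with the 15 rats of the In-Cage set on the left and the 22 of the Exercise set on the right, coloured by group. Rats with more G6pc tended to have more Irs2 in both sets (group-centred r of 0.833 and 0.629), though the uninjured Exercise rats hardly differ in Irs2. TX SCI replicate 4, farthest to the right at 2283 CPM of G6pc, has 42.1 CPM of Irs2.

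The other pairs were weaker or differed between the sets. G6pc and Ppargc1a gave r = -0.516 over In-Cage rats and r = 0.101 over Exercise rats, with adjusted permutation p of 0.268 and 0.715. Fbp1 and Pc gave 0.280 and 0.641, with adjusted permutation p of 0.500 and 0.214. Counted reads per library and Pc gave r = 0.678 over the Exercise rats (adjusted permutation p = 0.148), the strongest relation of a gene to depth over all rats of a set. Without SWIM replicate 4 and CONT SCI replicate 3, it was 0.478. Without the same rats, Irs2 and counted reads gave 0.587, beside 0.315 over all Exercise rats. Irs2 and counted reads gave r = -0.534 over In-Cage rats, which was -0.026 without Tiny replicate 5 and No SCI + Standard replicate 4.

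Likeness to other genes was ranked by the lower of the Pearson's r over the 15 In-Cage rats and over the 22 Exercise rats, without centring, among 9095 genes with a mean of at least 100 counts. Irs2 stood behind 18 genes in likeness to G6pc (r of 0.723 and 0.717), and G6pc behind 7 in likeness to Irs2. The gene most like G6pc was ENSRNOG00000004500, at 0.942 and 0.900, and the same gene was the second most like Irs2, at 0.785 and 0.764. The best match of Fbp1 reached 0.784 and 0.795, that of Pc 0.814 and 0.695 and that of Ppargc1a 0.640 and 0.549. These correlations run over all groups of a set, so differences between groups enter them. Names of the matching genes were not available in the tables used.

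Levels were also set between the 2 sets, which differ in depth and, for uninjured rats, in cage. Uninjured Exercise rats had G6pc between 339 and 826 CPM and uninjured In-Cage rats between 872 and 1345 CPM, with no overlap, as in 40% of all genes. The log2 fold change was -0.90 ± 0.26 (SE, 95% interval -1.46 to -0.35, adjusted p = 0.0111), and that of Pc 0.74 ± 0.23 (SE, 95% interval 0.25 to 1.23, adjusted p = 0.0167). These 2 of the 5 genes were called, beside 51.4% of all genes, so the share among the 5 was not above that of genes in general. Both were called without any 1 of the 9 rats, with adjusted p from 0.00367 to 0.0408 for G6pc and from 0.00131 to 0.0390 for Pc. In a single fit over all groups G6pc gave -0.92 with adjusted p = 0.105 and was not called. The share of all genes called in that fit is not given here, so the loss cannot be read as particular to G6pc. Cage, depth and set cannot be told apart in these differences.

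Contused rats in tiny cages without exercise, CONT SCI of one set against CONT SCI + Tiny of the other, gave 0 of 5 called beside 45.1% of all genes. The log2 fold changes were 0.40 ± 0.42 (SE, 95% interval -0.57 to 1.37, adjusted p = 0.472) for G6pc and 0.99 ± 0.71 (SE, 95% interval -0.67 to 2.65, adjusted p = 0.294) for Irs2. They were -0.05 ± 0.13 (SE, 95% interval -0.33 to 0.23, adjusted p = 0.788) for Fbp1, 0.16 ± 0.13 (SE, 95% interval -0.12 to 0.44, adjusted p = 0.33) for Pc and -0.11 ± 0.24 (SE, 95% interval -0.63 to 0.41, adjusted p = 0.735) for Ppargc1a. Without Tiny replicate 5, G6pc and Irs2 were called, at 0.84 with adjusted p = 0.0280 and 1.90 with adjusted p = 0.00903, and 42.5% of all genes were. The contusion effect itself was set between the sets by an interaction term. G6pc differed between CONT SCI and No SCI by 0.83 in the Exercise set and, for Tiny, by -0.50 in the In-Cage set. The difference of these effects was 1.31 ± 0.50 (SE, 95% interval 0.26 to 2.35, unadjusted p = 0.0169, adjusted p = 0.129 by edgeR). For Pc the difference was -0.57 ± 0.28 (SE, 95% interval -1.14 to 0.01, adjusted p = 0.205), for Fbp1 0.01 ± 0.19 (SE, 95% interval -0.38 to 0.40, adjusted p = 0.976), for Ppargc1a 0.06 ± 0.42 (SE, 95% interval -0.81 to 0.93, adjusted p = 0.942) and for Irs2 0.89 ± 0.75 (SE, 95% interval -0.71 to 2.48, adjusted p = 0.46). Of the 5 genes 0 were called, beside 0.199% of all genes, and cage is part of the contrast in the In-Cage set only.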

How the data were processed

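Poly(A) RNA of 37 rat livers was sequenced as single-end stranded libraries. According to the study's methods and the labels, reads were checked with FastQC 0.10.1, aligned by STAR to rn6 and assigned to genes of Ensembl by HTSeq in its reverse strand mode, without mitochondrial genes. The authors deposited 1 table of raw counts, not normalized, with 24613 genes and 37 sample columns, all of which were used. Samples were grouped by their labels. The genes and the lists of tests were chosen with earlier results of these data known.

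Counts were tested in edgeR 4.0.16 (R 4.3.3) with TMM normalization, filterByExpr (minimum count 10, minimum total 15), robust dispersion estimates and the quasi-likelihood test, on the rats of each comparison and over all genes that passed the filter, which all 5 genes did in all 13 comparisons. An adjusted p (Benjamini-Hochberg) under 0.05 was a call. The SE is the size of the log2 fold change divided by the square root of F, and 95% intervals are unadjusted. Log2 CPM used a prior count of 2. All 5 genes were tested in every comparison, with fold changes given singly or as a range, and the likeness ranking considered the 3 most similar genes of each. Correlations used 100000 permutations in scipy 1.17.1 under Python 3.11.15. DESeq2 1.42.0, RLE normalization, no filter, the replicate block, 1 fit over all groups and leaving out each rat were alternatives. The scripts were tested on simulated data. Lists of further pathway, clock and cell type genes are not analysed here, because the RefSeq table of 47357 genes held 0 rat Ensembl identifiers. The p-values of the group comparisons set each difference against the spread between rats, and depth limits precision mainly for Ppargc1a. By the study's methods, rats of the same group shared cages in pairs. The tests and permutations took each rat as independent, and an effect of shared cages was not tested.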

Additional observations from a re-analysis of the deposited data

Results flagged for a closer look

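In 7 of the 40 combinations of gene and group, the highest rat stood beyond the 95% limit of Dixon's test. The test was run on linear CPM, and its rate of about 1 in 20 by chance holds for normally distributed values. Levels skewed upwards pass the limit more often at the high end, so the 7 cannot be set against that rate. No lowest rat passed the limit on this scale, and log levels were not tested. For G6pc the highest rats beyond the limit were CONT SCI + Tiny replicate 5 at 1606 CPM, CONT SCI + SWW replicate 1 at 2023 CPM and TX SCI replicate 4 at 2283 CPM. For Irs2 they were CONT SCI + Large replicate 3 at 106 CPM, CONT SCI + Tiny replicate 5 at 74.7 CPM and CONT SCI + SWIM replicate 2 at 280 CPM. Ppargc1a had 1, CONT SCI + SWW replicate 4 at 4.29 CPM. Fbp1 and Pc had 0. Tiny replicate 5 appears for both G6pc and Irs2 and was the library with the fewest counted reads, 20066978. The part of depth in its values was not tested.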

How the results depend on the processing

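Of the 78 counts of called genes recomputed under settings other than leaving out a rat, 73 held and 5 moved. With DESeq2 the count was 1 for SWIM against No SCI (beside 1.35% of all genes), 3 for SWW against No SCI (6.66%) and 1 among all Exercise groups (9.62%), against 0 with edgeR in each. A fit over all groups gave 1 in place of 2 between uninjured rats of the sets, and the share of all genes called in that fit is not given here. Leaving out 1 rat gave counts from 0 to 1 for Tiny against No SCI + Standard, from 0 to 1 for SWW against No SCI and from 0 to 2 for contused rats between sets. The shares of all genes called in the fits with these higher counts are given above. The other 170 counts without 1 rat were unmoved. The cause was not tested.

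Same-numbered rats did not deviate together in every pair of any comparison (correlations of deviations from -0.54 to 0.65), so the numbers were not taken to pair rats. With the replicate number as a block, 2 genes were called between contused rats of the sets, G6pc at 0.80 (adjusted p = 0.0404) and Irs2 at 1.68 (adjusted p = 0.0175), beside 35.7% of all genes, and no other count moved. The block turned the sign of Irs2 for Tiny against No SCI + Standard (-0.37), Fbp1 for Large against Tiny (0.010), Irs2 for TX SCI against No SCI (-0.13), Pc and Ppargc1a for SWIM against SWW (-0.032 and -0.12), and Fbp1 for contused rats between sets (0.013).

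Other settings turned only log2 fold changes near 0. Fbp1 for Large against Tiny became 0.0047 with DESeq2, 0.0045 with RLE normalization and 0.0031 without the filter. Irs2 for TX SCI against No SCI became -0.00047 with DESeq2 and -0.030 without the filter. Pc for SWW against CONT SCI became -0.014 with DESeq2 and -0.012 with RLE normalization.

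Leaving out 1 rat turned the sign of 23 differences, 0 of them called. For G6pc the values ran from -0.57 to 0.021 for Large against No SCI + Standard, -0.077 to 0.71 for Large against Tiny, -0.75 to 0.22 for TX SCI against CONT SCI and -0.15 to 0.39 for SWW against CONT SCI. For Irs2 they ran from -0.85 to 0.26 for Tiny against No SCI + Standard, -0.30 to 0.24 for TX SCI against No SCI, -0.051 to 1.45 for SWIM against CONT SCI, -0.45 to 0.81 for SWIM against SWW and -0.029 to 0.30 for No SCI between sets. For Fbp1 they ran from -0.075 to 0.056 for Large against Tiny, -0.052 to 0.13 for TX SCI against CONT SCI, -0.15 to 0.050 for SWIM against No SCI, -0.12 to 0.034 for contused and -0.12 to 0.030 for uninjured rats between sets, and -0.070 to 0.093 for the contusion effect between sets. For Pc they ran from -0.027 to 0.12 for TX SCI against CONT SCI, -0.14 to 0.099 for SWIM against CONT SCI, -0.056 to 0.061 for SWW against CONT SCI and -0.14 to 0.095 for SWIM against SWW. For Ppargc1a they ran from -0.48 to 0.31 for SWIM against SWW, -0.22 to 0.0042 for contused and -0.52 to 0.084 for uninjured rats between sets, and -0.19 to 0.44 for the contusion effect between sets.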

Other observations

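The swimming rat with the highest Irs2 of the 37 livers, replicate 2 at 280 CPM, also had the highest Ppargc1a at 5.34 CPM, and G6pc at 1957 CPM, the highest of its group. In the transected group the order differed, since replicate 4 had the highest G6pc (2283 CPM) and Irs2 (42.1 CPM) while replicate 3 had the highest Ppargc1a (3.74 CPM). Over the Exercise rats, Ppargc1a and Irs2 gave a group-centred Pearson's r of 0.472 (adjusted permutation p = 0.252), which was 0.253 without SWIM replicates 2 and 3. Over the In-Cage rats it was -0.496 (adjusted permutation p = 0.275).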
